A study of Mus musculus with 59 samples.

Results

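The probes described here are 176 microarray probes whose RNA was higher in melan-a melanocytes treated with agouti signalling protein (ASP) at 1, 2, 3 and 4 d than in untreated cells, and whose late response to α-melanocyte stimulating hormone (α-MSH) was small. They were chosen from 18694 probes with a value on all 59 arrays, out of 38591 in the deposited table. Each array's values were first centred on their median. For each drug and time, the mean over arrays with treated RNA in Cy5 and the mean over arrays with it in Cy3 were then averaged, so that both dye orientations weigh equally. Membership required a centred log2 ratio of at least 0.585, which is a 1.5-fold rise, at each of the 4 ASP times, and a mean of the α-MSH ratios at 3 and 4 d between -0.4 and 0.4. These ASP values and the late α-MSH values therefore chose the probes, and are given below as a description without a test.

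Melan-a is an established, pigmented mouse melanocyte line of C57BL6 origin, so all samples come from 1 line. Cells were treated with recombinant murine ASP at 10 nM or with α-MSH at 100 nM, at 37 C, for 3 h or for 1, 2, 3 or 4 d, and each array compared RNA of treated cells with RNA of untreated cells, which received neither agent. The design describes 3 biological replicates per drug and time, each hybridised directly (treated RNA in Cy5) and with the dyes reversed. A total of 29 direct and 30 reverse arrays was used, with 6 per drug and time except for ASP at 2 d, which has 2 direct and 3 reverse arrays. Which direct array belongs with which reverse array is not labelled and was assumed, so that the replicate values below carry that assumption. At 2 d of ASP, replicate 3 is a lone reverse array. Ratios given with an SD weigh both dye orientations equally, so at 2 d of ASP they differ from the plain mean of the 3 replicates. Whether the untreated RNA was shared between times or drugs is not stated, so values at different times may share control RNA. The ratio is most likely treated over untreated, as the design writes it, and its base, its numerator and any earlier centring are not stated.

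α-MSH binds the melanocortin 1 receptor of melanocytes, raises cyclic AMP and thereby favours the synthesis of dark eumelanin. ASP, the product of the agouti locus, is an antagonist and inverse agonist of the same receptor, and its action in hair follicle melanocytes turns synthesis towards yellow pheomelanin. In cultured melanocytes ASP is known to lower the expression of many pigmentation genes. The files used here do not pair probe numbers with gene names, so the members are given by probe number or as a group, no pathway list was applied, and the identity of the cells was not checked against melanocyte markers.

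An array gave a value for between 22218 and 38371 of the probes, and the number of arrays limits the precision of each ratio. The array medians before centring ranged from -1.435, on ASP 1 d direct repeat 1, to 0.69, on ASP 3 h reverse repeat 4. Members had to have a value on every array, and a further 30 probes that lack some values meet the same criteria on the values they have.

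After 1 d of ASP the median member stood at a centred log2 ratio of 0.79, after 2 d at 0.86, after 3 d at 1.20 and after 4 d at 1.13. Over all 18694 probes the medians at these times were 0.13, -0.03, 0.00 and 0.03. The middle 50% of the members ran from 0.69 to 0.95 after 1 d and from 0.92 to 1.56 after 3 d. In linear terms the median member was 1.72-fold above untreated cells at 1 d and 2.29-fold above at 3 d. The threshold was reached by 3.23% of all probes after 1 d, 3.04% after 2 d, 6.3% after 3 d and 5.45% after 4 d. The threshold was reached at all 4 times by 235 probes, or 1.26%, and all criteria were met by the 176 members, or 0.941%. Of the 59 probes that rose at all 4 times without being members, 58 had a late α-MSH ratio of -0.4 or lower and 1 had a ratio of 0.4 or higher. The opposite pattern, a fall at all 4 ASP times with a small late α-MSH response, was met by 31 probes.

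The rise was mostly modest and grew with time. The mean over the 4 ASP times ran from 0.64 to 2.63 on the log2 scale, with a median of 1.02, or 2.03-fold. It was at least 1 in 93 members and at least 1.5 in 16, and 25 members were at 1 or above at every time. The highest of the 4 ratios was the 3 d ratio in 111 members, the 4 d ratio in 40, the 1 d ratio in 15 and the 2 d ratio in 10. The 3 d ratio exceeded the 1 d ratio in 152 members, by a median of 0.42, while over all probes the median of that difference was -0.12. From 3 to 4 d the ratio went up in only 53 members, and its median difference was -0.09. On the arrays of 3 d the members' median ran only from 1.18 to 1.31. A stepwise climb over 1, 2 and 3 d was seen in 91 members, and 22 of all members climbed through 4 d as well.

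The members differed in how early they reached their level. In 25 of them the mean of 3 and 4 d was at or above 2 times the 1 d log2 ratio, and in 27 it was below the 1 d ratio. The difference between late and 1 d ratios ranged from -0.36 to 1.97, with a median of 0.36. The order of members at 3 d was close to that at 4 d, with a Spearman correlation of 0.85 across the 176 members, whereas the order at 1 d resembled the late order less, with a correlation of 0.32. These correlations are across probes that may share genes and control RNA and that were selected on these values, and they carry no p.

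The probe with the highest mean was 1763317_1. At 1 d of ASP its 6 arrays gave 3.14, 2.13 and 2.32 in the direct orientation and 1.67, 2.71 and 2.26 in the reverse one. At 2 d the 2 direct arrays gave 2.19 and 2.71 and the 3 reverse arrays 1.39, 2.02 and 2.42. It was high on every array of 1 to 4 d of ASP, in both dye orientations, and none of these arrays came near 0. At 3 h of ASP its ratio was 0.49 ± 0.28 (SD, n = 3 replicates), with arrays from -0.10 to 1.08. Its ratio was 2.37 ± 0.07 (SD, n = 3 replicates) after 1 d and 2.20 ± 0.43 after 2 d, where the replicates were 1.788, 2.366 and 2.621. It reached 2.97 ± 0.17 after 3 d and 2.99 ± 0.19 after 4 d. The lowest of its 12 arrays at 3 and 4 d stood at 2.32, on a 4 d reverse array, and the highest at 3.39. It thus rose early, being 5.17-fold above untreated cells after 1 d and 7.95-fold after 4 d.

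With α-MSH the same probe scattered around 0 on the arrays. Its α-MSH ratio was -0.28 ± 0.74 (SD, n = 3) at 3 h, -0.33 ± 0.83 at 1 d and -0.06 ± 0.64 at 2 d, and single arrays over these times lay between -1.45 and 0.74. The spread between replicates exceeded each of these mean ratios.

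Probe 1773761_1 had the second highest mean and took longer. At 1 d of ASP its direct arrays gave 1.52, 0.45 and 0.24 and its reverse arrays 0.68, 0.92 and 1.00. At 2 d they gave 1.77 and 2.21, and 1.92, 2.59 and 2.95. All of the 2 d values lay above all of the 1 d values. The ratio was 0.80 ± 0.26 (SD, n = 3) after 1 d and 2.24 ± 0.49 after 2 d, where the replicates were 1.845, 2.397 and 2.82. It reached 2.69 ± 0.18 after 3 d and 2.85 ± 0.37 after 4 d. A rise of 1.74-fold at 1 d thus became one of 7.18-fold at 4 d, and the array values at 3 and 4 d ran from 2.08 to 3.53. At 2 d of α-MSH its replicates gave -0.46, 0.12 and -0.55, which fall on both sides of 0.

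The 20 members with the highest means had a median ratio of 1.07 after 1 d of ASP, 1.46 after 2 d, 2.11 after 3 d and 1.94 after 4 d. Their 3 h median was 0.24, with single probes from -0.44 to 0.72. Each of the 20 was at 1.57 or above at 3 d, while at 1 d they ran from 0.59 to 2.37. At the other end, the 3 members nearest to the limit had their lowest ratio at 0.5857, 0.5863 and 0.5865. The 3 nearest probes outside it had 0.5843, 0.5843 and 0.5842, so the border of the set runs between probes with practically equal values.

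Single arrays showed the rise in most members. The ratio was above 0 on all 23 ASP arrays of 1 to 4 d in 104 members, and above 0 in all 12 replicates in 169. The member with the fewest such arrays was above 0 on 19. The replicates of 3 d had members' medians of 1.23, 1.26 and 1.24, and those of 4 d 1.24, 1.16 and 1.00. They were less even after 1 d (1.23, 0.61 and 0.60) and after 2 d (0.69, 1.06 and 1.21). Over all 18694 probes the replicate medians were 0.51, -0.05 and -0.05 after 1 d, and -0.09, 0.01 and 0.17 after 2 d. The median SD between replicates of a member was 0.39 after 1 d and 0.36 after 2 d, against 0.19 after 3 d and 0.21 after 4 d. The 3 d ratios of single members were thus the most precise ones, and the 1 d ratios the least.

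One array of 1 d stood apart. On ASP 1 d direct repeat 1 the members had a median of 1.97 after centring, while on the other 5 arrays of 1 d it lay between 0.45 and 0.69. Replicate 1, which holds this array, was also the highest over all 18694 probes, with a median of 0.51 against -0.05 and -0.05. The members' medians of 1.23, 0.61 and 0.60 lay above those of all probes in each replicate. The same array had the lowest median before centring of all arrays, at -1.435. Without it, the members' 1 d median was 0.59, with a range from 0.27 to 2.22. All 176 members stayed above 0 at 1 d without this array, but only 88 stayed at or above 0.585. The criteria as a whole were then met by 90 probes, 88 of them members. The height of the 1 d ratios, and with it which probes count as raised from 1 d, therefore rests on this array to a large degree, while the 2, 3 and 4 d ratios do not include it. Leaving out any other single ASP array of 1 to 4 d gave between 156 and 219 probes. The α-MSH arrays of 3 and 4 d, which also decide membership, were not left out in turn.

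The levels also differed by dye orientation. After 1 d the members' median was 1.06 over direct arrays and 0.55 over reverse arrays. The corresponding values were 0.89 and 0.87 for 2 d, 1.29 and 1.18 for 3 d, and 1.22 and 0.99 for 4 d. At 2 d and 3 d the orientations gave nearly equal levels. Most of the gap at 1 d is the same direct array, since the 3 direct arrays stood at 1.97, 0.68 and 0.69 and the 3 reverse arrays at 0.54, 0.59 and 0.45. Over all probes at 1 d the same medians were 0.44 and -0.17. Applied to direct arrays alone, the criteria were met by 227 probes, of which 100 were members, and applied to reverse arrays alone by 95, of which 28 were members.

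At 3 h of ASP, a time the selection did not use, the members as a group stood close to all probes. Their median ratio was 0.09, with the middle 50% from -0.21 to 0.24, against 0.03 over all 18694 probes. Of the 176 members, 115 were above 0 and 61 below, and 45.24% of all probes were below. The members' median in the 3 replicates was 0.09, 0.20 and -0.08, and the corresponding medians of all probes were 0.00, 0.17 and -0.10. The members followed the shift of each replicate and lay slightly above all probes in each. In all 3 replicates 57 members were above 0, or 32.39%, against 19.88% of all probes, and 29 were below 0, or 16.48%, against 16.37%. Without direct repeat 3 and reverse repeat 5, which were picked after their values were seen, the members' 3 h median was 0.18, and over all probes tested it was 0.07. The highest member was at 0.72 and the lowest at -1.48.

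The test of each probe's mean ratio against 0, with limma and Benjamini-Hochberg adjustment over 36025 probes, called 147 probes, or 0.408%, at 3 h of ASP at an adjusted p below 0.05. Of these, 131 were lower, or 0.364% of those tested, and 16 were higher, or 0.0444%. Among the 176 members, 1 was called lower, which is 0.568%, and none was called higher. At an unadjusted p below 0.05, 28 members were lower, or 15.91%, against 6.56% of all probes tested, and 14 were higher, or 7.955%, against 4.69%. Every member has a value on all arrays, while the 36025 probes include ones that do not, so these shares are of unlike sets. The shares among the 18694 probes with a value on all arrays were not computed. The same holds for the shares of tested probes with α-MSH below. The counts at 3 h moved much with the processing, and 1 or 2 members were called higher under some alternatives. These were 1 with pairs from title numbers, 2 with only the probes measured on every array, 2 in a fit of unaveraged arrays, and 1 without replicate 1. More members were called lower in the same settings, namely 6, 12, 8 and 6 in that order. Without direct repeat 3 and reverse repeat 5, 1 member was called, and it was higher. Leaving out replicate 1 gave 693 called probes with 7 members, leaving out replicate 2 gave 26 with 0 members, and leaving out replicate 3 gave 3 with 0 members.

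The member called at 3 h was 1791554_1. Its 3 h arrays gave 0.45, -0.25 and -2.95 in the direct orientation and -0.82, -2.48 and -0.12 in the reverse one. Direct repeat 3 and reverse repeat 5 were far below 0, and the other 4 arrays lay between -0.82 and 0.45. The mean ratio was -1.03 ± 0.74 (SD, n = 3), from replicates of -0.19, -1.37 and -1.54. limma's adjusted p was 0.0427, with a standard error of 0.22. That error comes from the spread over the replicates of all groups and both drugs, not from these 3 alone. A fit on the arrays of ASP alone called 0 members. The same probe had ASP ratios of 1.20 ± 0.27 (SD, n = 3) after 1 d, 1.44 ± 0.18 after 2 d, 0.93 ± 0.40 after 3 d and 1.01 ± 0.23 after 4 d. Since 2 of the 6 arrays carry its low 3 h mean, and no member was called with replicate 2 or replicate 3 left out, the 3 h value rests on those arrays.

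Probe 1763621_1, which had the lowest 3 h ratio of all members, had the same pair of arrays low. Its direct arrays gave -0.52, 0.73 and -4.03 and its reverse arrays -1.14, -3.48 and -0.42. Its mean was -1.48 ± 0.70 (SD, n = 3), and limma's adjusted p of 0.0631 missed the threshold. Its ASP ratios were 0.96 ± 0.41 (SD, n = 3) after 1 d, 0.95 ± 0.38 after 2 d, 1.19 ± 1.03 after 3 d and 0.65 ± 0.84 after 4 d. Its replicates spread widely at the late times, with a lowest value of -0.12 after 4 d.

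These 2 probes belong to a distinct portion of the members. Below -1 on both ASP 3 h direct repeat 3 and reverse repeat 5 were 32 members, or 18.18%, against 1158 or 6.195% of all 18694 probes. In the other 8 combinations of 1 direct and 1 reverse array, between 0 and 5 members were below -1 on both. Across all probes, these 2 arrays correlated at 0.518, while the other 8 combinations gave between -0.519 and -0.058. The assumed pairing puts the arrays into different replicates, 3 and 2. Whether they hold the same RNA is not labelled and was not tested.

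On these 2 arrays the 32 members had medians of -2.03 and -1.73. The other 144 members had medians of 0.20 and -0.12 there. On the other 4 arrays of 3 h the 32 members had medians of 0.34 and 0.57 in the direct orientation and -0.71 and -0.41 in the reverse one, against 0.61, 0.70, -0.37 and -0.25 in the 144. Without the 2 arrays, the 32 members had a 3 h median of 0.03, with 17 of them above 0, and the other 144 a median of 0.19, with 123 above 0. The 32 members were thus far below the 144 on the 2 arrays that defined them, and by a smaller margin below them on the other 4.

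The same 32 members were also lower than the other members on 2 arrays of the other drug. On α-MSH 4 d direct repeat 3 their median was -0.55, against 0.54 in the other 144 members. On α-MSH 4 d reverse repeat 5 it was -1.19, against -0.34. These were the 2 arrays with the largest gap between the 32 and the 144 after the ASP 3 h arrays, and the assumed pairing joins them into 1 replicate. The gap on the reverse one, -0.86, was close to those on ASP 4 d direct repeat 3, -0.78, and ASP 3 d direct repeat 2, -0.76. The α-MSH 4 d values also entered the selection of the members. Across all 18694 probes, the reverse arrays of ASP 3 h and α-MSH 4 d correlated at 0.63 and the direct ones at 0.46. ASP 3 h direct repeat 3 correlated with the α-MSH 4 d reverse array at 0.44, and ASP 3 h reverse repeat 5 with the α-MSH 4 d direct array at only 0.26. Over the remaining 55 arrays, the highest correlation with either of the ASP 3 h arrays was 0.37. For 1763621_1, the 2 α-MSH 4 d arrays gave -1.92 and -1.97, and the other 4 lay between -0.30 and 0.28. How the low values on these 4 arrays arose was not tested.

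From 1 d of ASP on, the 32 members had medians near those of the others at first and lower ones later, though not on every array. After 1 d their median was 0.84, against 0.78 in the other 144 members. It was 0.76 against 0.88 after 2 d, 0.95 against 1.32 after 3 d, and 0.89 against 1.19 after 4 d. On both arrays of replicate 1 the 32 were not lower, with 1.35 against 1.29 and 1.24 against 1.20 at 3 d. At 4 d these arrays gave 1.72 against 1.71 and 0.90 against 0.77. The 32 were lower on all other arrays of 3 and 4 d, most on 4 d direct repeat 3, with 0.30 against 1.08. The highest 3 d ratio among the 32 was 1.77, and among the 144 it was 2.97. These values come from the contrasts that chose the members and carry no test.

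The 32 probes were also uneven along the probe numbers. Of the probes in the first stretch of 2000 numbers that had a value on all arrays, 2.07% were members, against 0 to 1.44% in the other 18 stretches, whose median was 0.85%. That stretch held 28 members, 17 of them among the 32 and 11 among the 144. Without the 32, members made up 0.814% of the first stretch, which is within the range of 0 to 1.33% in the other stretches. Over all probes, the share below -1 on both 3 h arrays was 9.911% in the first stretch and higher still in stretches 17 and 18, at 15.86% and 15.6%, each of which held 3 of the 32 members. What neighbouring probe numbers share, in design or in position on the array, is not given in the sources used here.

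With α-MSH the members changed little at the times the selection did not use. The limma test called no probe and no member at 3 h, 1 d or 2 d. At an unadjusted p below 0.05 there were 495 probes at 3 h, or 1.31% of 37883, and 0.47% were higher, with 0 members in either direction. At 1 d there were 792 of 37920, or 2.09%, and 0.894% were higher, with 2 members, both higher, or 1.136%. At 2 d there were 851 of 36789, or 2.31%, and lower and higher probes made up 1.17% and 1.14%. Of the members, 6 were lower, or 3.409%, and 1 was higher, or 0.568%. An absence of calls at this number of arrays does not show that the members were unaffected.

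The members nonetheless lay mostly below other probes at these 3 α-MSH times. At 3 h the members' median was 0.01 and 82, or 46.59%, were below 0, against 30.04% of all probes, whose median was 0.04. At 1 d the median was -0.07 and 118 members, or 67.05%, were below 0, against 37.45% of all probes, whose median was 0.03. At 2 d the median was -0.10 and 122 members, or 69.32%, were below 0, against 48.41% of all probes, whose median was 0.00. In all 3 replicates of 2 d, 44 members were below 0, or 25%, against 11.06% of all probes.

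The sizes were small beside the spread between replicates. The members' median in the 3 replicates of 1 d was -0.24, -0.02 and 0.08, and in those of 2 d -0.23, -0.09 and 0.01. At 1 d the lower position rests on replicate 1: without it the members' median was 0.04, against 0.03 over all probes tested. At 3 h it turned with replicate 2, without which the medians were 0.09 and 0.03. Both 1 and 2 d had a replicate above 0, and the median SD of a member was 0.25 at 1 d and 0.22 at 2 d. At 2 d the members lay below all probes in both dye orientations, with medians of 0.10 against 0.20 over direct arrays and -0.27 against -0.19 over reverse arrays. At 3 and 4 d, where the selection bounded the mean, 141 of the 176 members had a late ratio below 0, with a median of -0.16, against 36.2% and 0.05 for all probes.

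Set beside the 58 probes that rose with ASP at all 4 times and fell late with α-MSH, the members had medians nearer to 0 at 1 and 3 d of ASP and at 1 and 2 d of α-MSH. The 58 probes had ASP medians of 1.02 at 1 d and 1.40 at 3 d, against 0.79 and 1.20 in the members. At 2 d of α-MSH, which did not enter the selection of either set, the median was -0.36 in the 58 probes, with 54 of them below 0, and -0.10 in the members. At 1 d the medians were -0.11 and -0.07. The replicates of 1 d gave -0.48, 0.08 and 0.14 for the 58 probes and -0.24, -0.02 and 0.08 for the members. At 1 d the 58 probes were thus lower only in replicate 1, and higher in replicates 2 and 3. The replicates of 2 d gave -0.74, -0.27 and -0.02 for the 58 probes and -0.23, -0.09 and 0.01 for the members, and in each replicate the 58 probes were lower. This difference was not tested, and since both sets were cut from one continuous range of late α-MSH ratios, they are neighbouring ranges and not separate classes.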

How the data were processed

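Total RNA of treated and untreated cells was labelled indirectly with Cy3 and Cy5 and hybridised together, per the labels' protocols. The authors deposited 1 log ratio per probe and array, taken here as log2; which scanner, software, spot filter and normalization they used is not given in the sources used here. All 59 sample columns of the deposited table were used, and 0 were left aside. Arrays were centred on their median. The members were those of the stated criteria, and they and all lists were chosen with earlier results of these data known. For tests, each probe's dye effect over the arrays of its drug was removed, the 2 arrays of an assumed dye-swap pair were averaged into 1 replicate, and probes with a value in all 3 replicates were fitted with limma 3.58.1 under R 4.3.3 (all groups in 1 fit with lmFit, then eBayes, mean against 0, Benjamini-Hochberg over all probes tested). For ASP at 2 d, replicate 3 was a lone reverse array. The fit was tested on simulated data with independent noise for each probe and replicate. Such data hold no pattern shared between arrays, so that test cannot check calls that rest on one. Summaries used pandas 2.3.3, and the loess alternative, with a span of 0.3, used statsmodels 0.14.6. The p-values rest on a spread estimated for each probe over the replicates of all groups and both drugs, all of 1 cell line. Probe numbers were named only for the 2 members with the highest mean ASP ratio and for 2 low at 3 h: the member with the smallest p and the one with the lowest ratio, the latter chosen after its values were seen. Gene lists and cell type markers could not be applied without gene names. The 32 members and the array pairs at 3 h were singled out after their values were seen. Calls at ASP 1 to 4 d are not reported, since those contrasts chose the members.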

Additional observations from a re-analysis of the deposited data

Results flagged for a closer look

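The members' median on ASP 1 d direct repeat 1, after removal of each probe's dye effect, was 1.8, while on the other 5 arrays of that time it lay between 0.52 and 0.75. The gap to the nearest array was 0.82 of the whole range of the 6 values. It was the only one of 50 combinations checked in which a single array stood this far from the others, and chance gives about 1 such case in 20 groups. The raw median of this array was -1.435, and the part of this in the members' 1 d level was not tested. All 18694 probes were also higher in the replicate that holds it, with a median of 0.51 against -0.05 and -0.05 in the others.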

How the results depend on the processing

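Among the alternatives for counts and group medians, 81 stayed within 1.5 times the count (many at 0) or within 1 SD of the replicate medians, and 24 moved. Within that SD, medians could turn sign: without replicate 1, α-MSH 1 d went from -0.07 to 0.04 and α-MSH 3 h from 0.01 to -0.06. The ASP 3 h median fell from 0.09 to 0.007 without replicate 2, where all probes tested stood at 0.003. The 24 that moved concern ASP 3 h, but for α-MSH 2 d without replicate 3, where 1 probe was called. Against 147 of 36025 probes and 1 of 176 members called at ASP 3 h, no centring gave 475 probes and 6 members. A loess correction of the dye profile gave 513 and 4, and pairs taken from title numbers 388 and 7. When only the 18694 probes measured on every array were tested, 601 were called, with 14 members. Single arrays with the pair as a random block gave 494 and 10. Of the members called in these 5 settings, 6, 4, 6, 12 and 8 were lower. A fit on the arrays of ASP alone gave 0 and 0. With the replicate number as a block, 346 probes and 5 members were called. Same-numbered ASP replicates correlated between -0.289 and 0.293 in their deviations, with a median of 0.04, against 0.001 for different numbers. Whether a number marks shared samples across times is not labelled, and such correlations among 3 replicates per time cannot decide it. Leaving out 1 replicate gave 3 to 693 probes and 0 to 7 members. Chosen after seeing the data, crossed pairs at ASP 3 h gave 1 probe and 0 members, and leaving out direct repeat 3 and reverse repeat 5 gave 22 probes and 1 member, which was higher. Without centring, 102 probes met the criteria, without ASP 1 d replicate 1 97, and after loess 129. The mean ASP ratio of 1763317_1 was 2.80 over direct and 2.46 over reverse arrays. Alternatives for calls at ASP 1 to 4 d were not run. The pairing of arrays is assumed, with a consensus correlation of -0.0842 within pairs.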
